A study of Mus musculus with 8 samples.

Results

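The integrated stress response and the amino acid supply genes it controls were examined in mouse embryonic stem cells (mESCs), pluripotent cells derived from early embryos. The set held 36 of the 43309 genes of the count table, and all 36 were among the 16816 genes tested. It was divided into 10 regulators, 14 genes of amino acid synthesis and transport, and 12 cytosolic aminoacyl-tRNA synthetases (listed synthetases). The genes were chosen from the known targets and partners of the transcription factors ATF4 and CHOP, after the ratios of *Atf3* and *Ddit3* between genotypes were known from these libraries. Levels and calls between genotypes are therefore given as a description, and tests are given for cell number and for its interaction with genotype.

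When eIF2, the factor that brings the initiator tRNA to the ribosome, is phosphorylated by one of its kinases, protein synthesis falls in general while the mRNA of *Atf4* is translated better. ATF4 pairs with C/EBP proteins on response elements of genes for amino acid synthesis, uptake and tRNA charging. Lasting activity also raises CHOP, the product of *Ddit3*. In cultured cells the same genes respond to a shortage of single amino acids, to unfolded protein in the endoplasmic reticulum (ER) and to oxidative stress.

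The 8 libraries were made from J1 (129SV) mESCs grown in serum medium on gelatin without feeder cells. The 4 labelled WT came from *Zbtb24* 2lox/+ cells and the 4 labelled KO from *Zbtb24* 1lox/1lox cells, where *Zbtb24* encodes a zinc finger protein. In each genotype 2 libraries started from 100 cells (about 1 ng of RNA, 18 PCR cycles) and 2 from 1000 cells (about 10 ng, 10 cycles), with cells lysed directly and polyadenylated RNA copied by the SMARTer Ultra Low kit. Cell number and PCR cycles changed together and cannot be told apart. The clone behind each library was not given in the labels, so each n of 2 and each p-value refers to the spread between labelled replicates. In such bulk libraries, fewer cells of a type and less RNA per cell cannot be told apart.

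Several properties of the libraries bear on all values. Total counts ranged from 9666985 to 16686525. The level of *Zbtb24* was 14.1 to 20.3 cpm (counts scaled to a fixed total of the TMM-adjusted library) in the WT libraries and 37.3 to 40.9 cpm in the KO libraries. The label KO is thus not matched by a lower count of the targeted gene. A count per gene cannot show whether the targeted part of the gene is missing, so it does not settle the label. Groups are called labelled WT and labelled KO (WT and KO for short). Of 8 pluripotency markers all were detected in every group, with summed levels of 2875 to 3856 cpm. The largest part was *Tdgf1*, at 1549 to 1957 cpm, so the sum does not show that the markers matched between genotypes. Against WT (test given below) 5 of the 8 were called higher in KO and 2 lower at 1000 cells, and 4 and 1 at 100 cells. Of all tested genes 20.9% were called higher and 20.6% lower at 1000 cells, and 17.6% and 16.6% at 100 cells. The 2 KO libraries of 100 cells stood apart in markers of brain cells. The summed level of 8 myelin and astrocyte markers was 287 and 289 cpm in them and 43.5 to 53.6 cpm in the other 6 libraries, where *Aqp4* was at 0 in 5 of 6. The neuron marker *Snap25* was at 77.2 and 83.7 cpm in them and at 1.39 to 3.05 cpm elsewhere, although the sum of the 8 neuron markers, dominated by *Stmn2*, ranged only from 391 to 531 cpm over all libraries. Of 8 fibroblast markers 5 were too low to be tested, and the others summed to at most 3.78 cpm. Results at 1000 cells do not use the KO libraries of 100 cells.

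The promoters of members that carry the C/EBP-ATF response element TGATGCAA, on which ATF4 and C/EBP proteins bind together, are shown because 8 members from all 3 subgroups hold this sequence. Each is 300 bases long, from 250 before to 50 after the RefSeq transcript start in GRCm38.p6, printed 5′ to 3′ on the strand of the gene with the element, read on either strand (TTGCATCA is its reverse complement), in capitals. The 5 shown are those with the largest mean KO/WT log2 ratios, all positive, among the 8 with the element. They are *Atf3* (chr1:191183284-191183583, minus strand), *Chac1* (chr2:119350992-119351291, plus strand), *Pycr1* (chr11:120643699-120643998, minus strand), *Aars* (chr8:111033592-111033891, plus strand) and *Iars* (chr13:49681880-49682179, plus strand).
Atf3: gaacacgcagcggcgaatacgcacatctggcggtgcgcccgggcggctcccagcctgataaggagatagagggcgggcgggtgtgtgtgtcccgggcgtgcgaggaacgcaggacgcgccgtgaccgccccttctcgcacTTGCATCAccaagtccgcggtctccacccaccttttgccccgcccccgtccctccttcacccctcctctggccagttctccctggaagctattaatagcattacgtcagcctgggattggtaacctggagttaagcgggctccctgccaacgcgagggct
Chac1: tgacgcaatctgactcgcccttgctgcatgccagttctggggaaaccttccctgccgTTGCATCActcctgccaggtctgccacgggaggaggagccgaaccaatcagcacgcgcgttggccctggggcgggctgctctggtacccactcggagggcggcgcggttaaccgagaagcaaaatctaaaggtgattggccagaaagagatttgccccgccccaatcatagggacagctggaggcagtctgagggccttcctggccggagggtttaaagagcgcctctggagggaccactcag
Pycr1: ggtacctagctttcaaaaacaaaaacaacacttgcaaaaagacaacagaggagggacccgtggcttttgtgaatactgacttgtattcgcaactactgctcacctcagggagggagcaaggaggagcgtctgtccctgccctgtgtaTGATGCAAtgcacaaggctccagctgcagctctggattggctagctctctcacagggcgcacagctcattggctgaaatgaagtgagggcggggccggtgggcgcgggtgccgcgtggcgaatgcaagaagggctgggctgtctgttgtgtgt
Aars: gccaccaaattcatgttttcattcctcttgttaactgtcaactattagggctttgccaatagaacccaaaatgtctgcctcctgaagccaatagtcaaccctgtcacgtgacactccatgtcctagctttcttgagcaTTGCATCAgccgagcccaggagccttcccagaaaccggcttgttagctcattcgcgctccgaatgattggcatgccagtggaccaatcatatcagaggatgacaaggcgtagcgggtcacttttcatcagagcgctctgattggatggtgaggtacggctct
Iars: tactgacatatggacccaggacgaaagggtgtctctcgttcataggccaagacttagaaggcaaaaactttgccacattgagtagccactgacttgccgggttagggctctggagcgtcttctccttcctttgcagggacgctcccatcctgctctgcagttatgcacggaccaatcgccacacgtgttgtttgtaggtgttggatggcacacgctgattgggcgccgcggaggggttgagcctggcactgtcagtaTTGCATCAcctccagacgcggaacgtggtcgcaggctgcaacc

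Promoters were found for 30 of the 36 members. The element TGATGCAA was in 8 of the 30 (26.7%), namely *Atf3*, *Chac1*, *Pycr1*, *Slc7a11*, *Aars*, *Iars*, *Tars* and *Yars*, and in 0.895% of 32851 mouse promoters of the same length (0.722% of the 11775 tested genes with a promoter). In *Atf3* it lay 110 to 103 bases before the start, in *Aars* 112 to 105 and in *Pycr1* 103 to 96. It lay farther off in *Chac1*, 193 to 186 bases before the start, and behind the start in *Iars* and *Yars*. *Slc7a11* held it on both strands, 66 to 59 and 47 to 40 bases before the start. The looser form TGATGNAA, which includes every match of the first, was in 11 of 30 (36.7%) against 3.97% of all promoters and 2.79% of tested genes, and added *Trib3*, *Asns* and *Gars*. The cAMP response element TGACGTCA was in 1 of 30, that of *Ppp1r15a* (3.33%, against 1.79% of all promoters and 3.48% of tested genes). Members were picked as known targets of ATF4, so these shares describe the choice of genes, and a match is not evidence of binding.

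The 36 genes covered a wide range of levels. Per kilobase of exon, *Asns* was the highest of the set, with a mean of 260 cpm per kilobase over the 8 libraries, followed by *Nars* (149), *Gars* (143) and *Psat1* (124). The lowest were *Atf5* (0.376), *Slc7a11* (0.357) and *Slc6a9* (0.312). Regulators were on the whole low, since *Atf4* at 84.2 was followed among the 10 by *Chac1* at 32.9, whereas all 12 listed synthetases were between 20.1 and 149. In the WT libraries of 1000 cells the listed synthetases summed to 3198 and 3124 cpm, the synthesis and transport genes to 2101 and 1970 cpm, and the regulators to 324 and 307 cpm.

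KO was compared with WT to describe the stress and amino acid genes in both genotypes at each input. Most members were higher in the libraries labelled KO, in all 3 subgroups and at both inputs. At 1000 cells 31 of 36 were called higher and 2 lower (edgeR quasi-likelihood test, Benjamini-Hochberg adjusted p of at most 0.05 over all tested genes), where 20.9% of all tested genes were called higher and 20.6% lower. At 100 cells 27 were called higher and 2 lower, with 17.6% and 16.6% of all tested genes. Called higher at both inputs were 25 members and lower at both 1, *Slc7a11*. The share of all tested genes called at both inputs was not counted. It is at most the share called at 100 cells, 17.6% higher and 16.6% lower. *Slc7a3* was called higher at 1000 cells and lower at 100, and *Atf5* was called at neither. In 23 members all 4 KO libraries lay above all 4 WT libraries (14.1% of all tested genes did), in 1 they lay below (13.9%), and in 12 they overlapped. Without replicate 1 or 2 of KO at 100 cells, 16 and 15 members were called higher at that input and 0 and 1 lower, with 6.89% and 6.83% of all tested genes higher and 5.66% and 5.45% lower. At 1000 cells 1 member was called lower whichever library was left out. These counts describe a list drawn up with the contrast known. The KO libraries of 100 cells, with their 287 and 289 cpm of myelin and astrocyte markers, enter every ratio at 100 cells, and their part in those ratios was not tested. At 1000 cells the sum of these markers was 43.5 to 45.1 cpm in WT and 49.0 to 52.5 cpm in KO. The heatmap of levels in each library shows the members by subgroup.

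**Figure D1:**
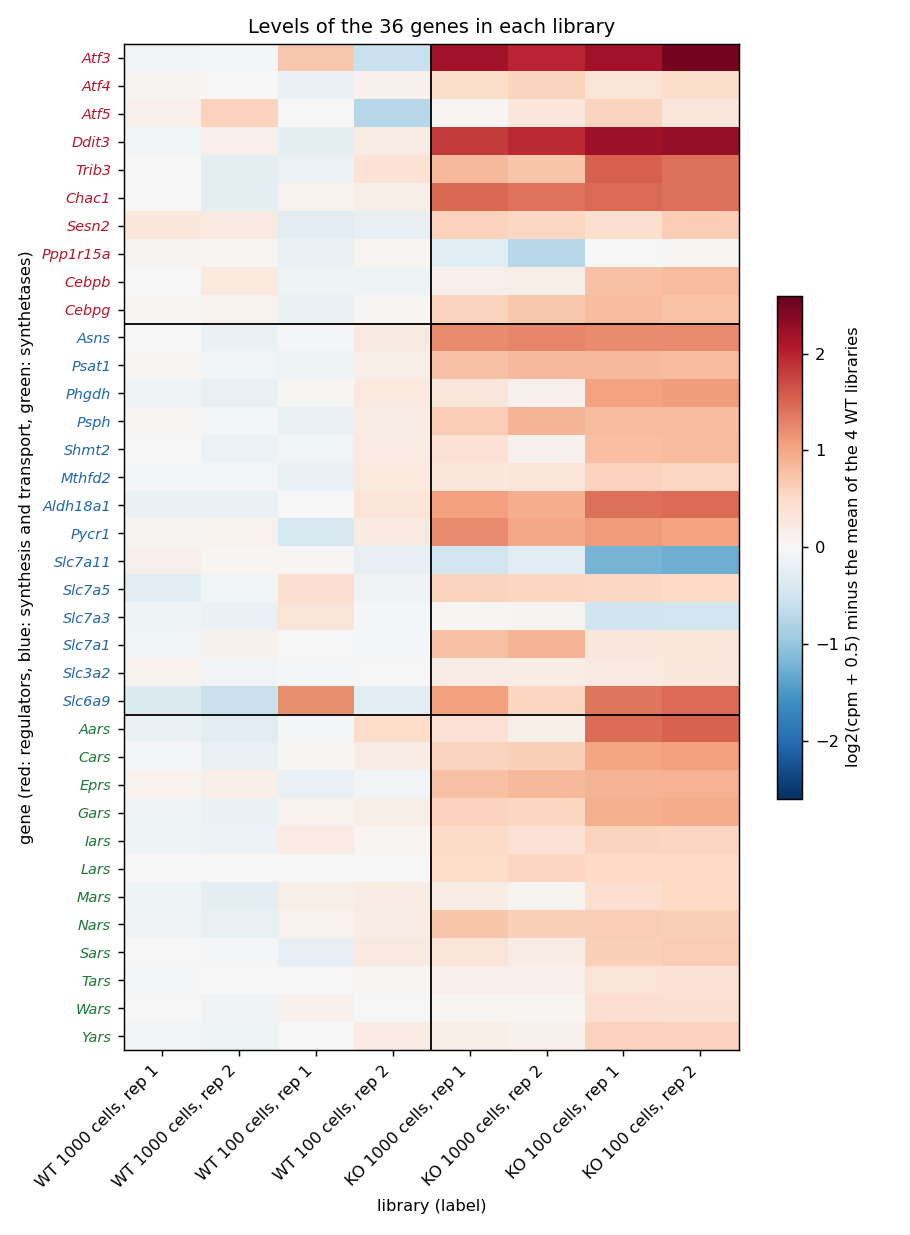
Level of each of the 36 genes (rows, gene names coloured by subgroup) in each of the 8 libraries (columns, with label, cell number and replicate), as log2(cpm + 0.5) minus the mean of the 4 WT libraries of that gene (colour scale). Most rows are red in the KO columns; *Slc7a11* is blue in all 4 of them, and *Aars* and *Phgdh* are darkest in the KO libraries of 100 cells.

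Among the subgroups, the median KO/WT log2 ratio was 0.53 for regulators, 0.77 for synthesis and transport and 0.50 for listed synthetases at 1000 cells. At 100 cells it was 1.13, 0.72 and 0.47. The medians over all tested genes were near 0 at both inputs (-0.00089 and -0.0010). The summed level of the regulators was 1.60 times that of WT in KO at 1000 cells and 1.79 times at 100 cells. For synthesis and transport the ratios were 1.63 and 1.56, and for the listed synthetases 1.47 and 1.63. Single members spread most among regulators and transporters, from -0.60 (*Ppp1r15a*) to 2.41 (*Atf3*) at 1000 cells, and least among listed synthetases, from 0.10 (*Wars*) to 0.81 (*Nars*).

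**Figure D2:**
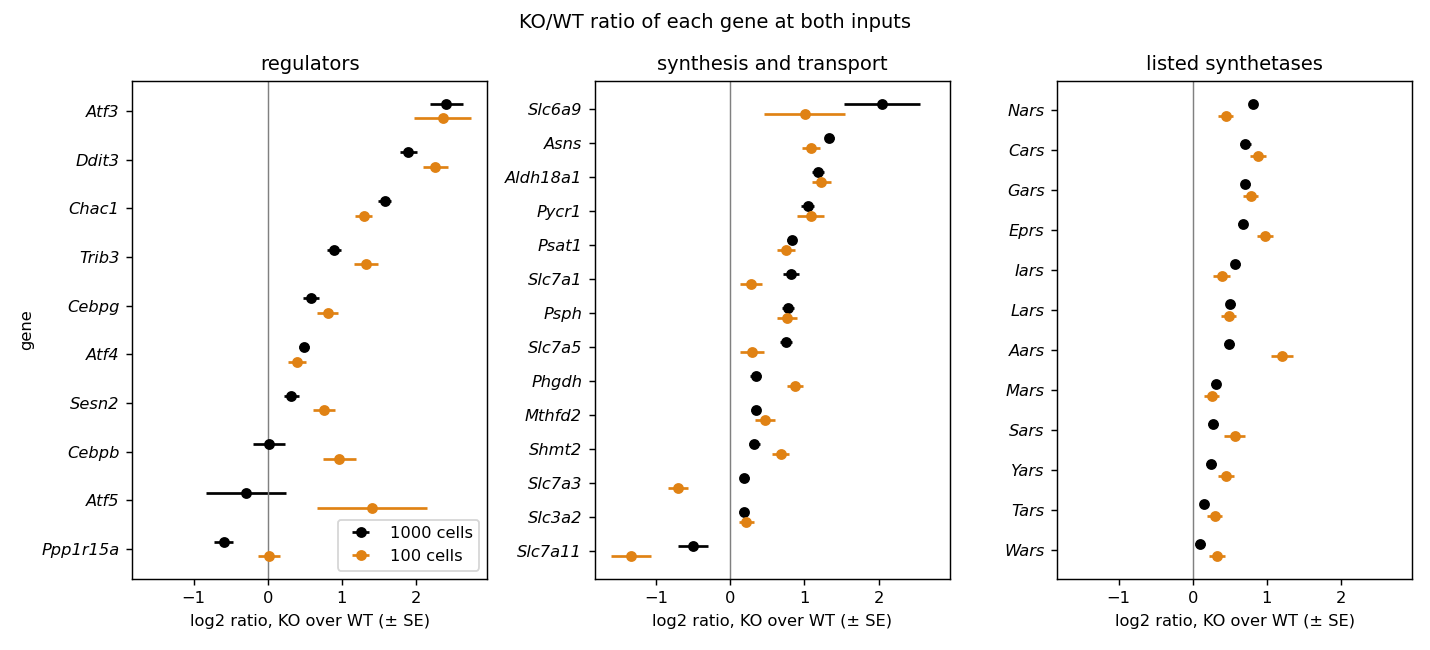
KO/WT log2 ratio (x axis, points with bars of 1 SE) of each gene (y axis) at 1000 cells (black) and 100 cells (orange), in 1 panel for each subgroup, ordered by the ratio at 1000 cells. The listed synthetases lie between 0.10 and 1.20, whereas regulators and transporters spread to both sides of 0, and *Slc7a3* lies on opposite sides of 0 at the 2 inputs.

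The regulators with the largest ratios were *Atf3* and *Ddit3*. *Atf3* (chr1:191170296-191218039), a stress-induced factor of the ATF family, was at 1.91 and 1.96 cpm in WT and 11.1 and 9.55 cpm in KO at 1000 cells. Libraries from 100 cells gave 3.66 and 1.21 cpm for WT and 11 and 13.8 cpm for KO. The KO libraries were all above the WT libraries, with log2 ratios of 2.41 ± 0.22 (SE, 2 libraries per group) at 1000 cells and 2.36 ± 0.39 at 100 cells. *Ddit3* (chr10:127290774-127296288) was at 9.49 and 10.9 cpm in WT and 36 and 39.3 cpm in KO at 1000 cells. With 100 cells, WT had 8.21 and 11.4 cpm and KO 47.5 and 50.1 cpm. Its groups did not overlap, and its log2 ratios were 1.90 ± 0.12 and 2.26 ± 0.17. *Ddit3* shares 68 bases of exon with the antisense gene *Mars*, which is itself a member, and counting ignored strand.

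*Chac1* (chr2:119351229-119354381), which breaks down glutathione, was at 28.6 and 23.8 cpm in WT and 80.7 and 76.8 cpm in KO at 1000 cells. Its levels from 100 cells were 30.4 and 32.1 cpm in WT and 80.5 and 77.4 cpm in KO. Its 4 KO values lay between 76.8 and 80.7 cpm, at log2 ratios of 1.58 ± 0.093 and 1.29 ± 0.11. *Trib3* (chr2:152337422-152344032), a pseudokinase that dampens ATF4 and CHOP, was at 29.2 and 24.7 cpm in WT and 52.5 and 48.4 cpm in KO at 1000 cells. From 100 cells it reached 26.3 and 38.3 cpm in WT and 87.3 and 79.8 cpm in KO. The KO libraries of 100 cells thus stood above all others, and the log2 ratios were 0.89 ± 0.098 and 1.32 ± 0.16. *Cebpg* (chr7:35046422-35056573), a C/EBP partner of ATF4, was at 20.4 and 20.9 cpm in WT and 29.5 and 32.2 cpm in KO at 1000 cells. In the smaller input, WT gave 17.1 and 20 cpm and KO 34.4 and 32.8 cpm. All KO values of *Cebpg* exceeded all WT values (0.58 ± 0.11 and 0.81 ± 0.14).

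Of the other regulators, *Atf4* itself had log2 ratios of 0.48 ± 0.065 and 0.40 ± 0.12, smaller than those of *Ddit3*, *Chac1* and *Trib3*. An mRNA level says nothing of the translation through which ATF4 is mainly controlled. *Sesn2*, a leucine sensor that restrains mTORC1, had 0.32 ± 0.099 and 0.76 ± 0.14. *Atf5*, another ATF factor, was at no more than 1.15 cpm in any library, with -0.29 ± 0.54 and 1.41 ± 0.74. *Cebpb*, a further C/EBP factor, had 0.02 ± 0.21 and 0.97 ± 0.22, and *Ppp1r15a*, the phosphatase subunit that reverses eIF2 phosphorylation, had -0.60 ± 0.13 and 0.02 ± 0.15. Thus 7 of 10 regulators were called higher at both inputs, as were at most 17.6% of all tested genes. The calls of *Sesn2* at 1000 cells and of *Atf4* at 100 cells were each lost in 3 of 12 alternative analyses. Those of *Sesn2* and *Cebpg* at 100 cells were each lost in 1. These alternatives include fits with 1 library left out. Of the exon length of *Cebpb* 20.7% overlaps *Tmem189* on the opposite strand.

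**Figure D3:**
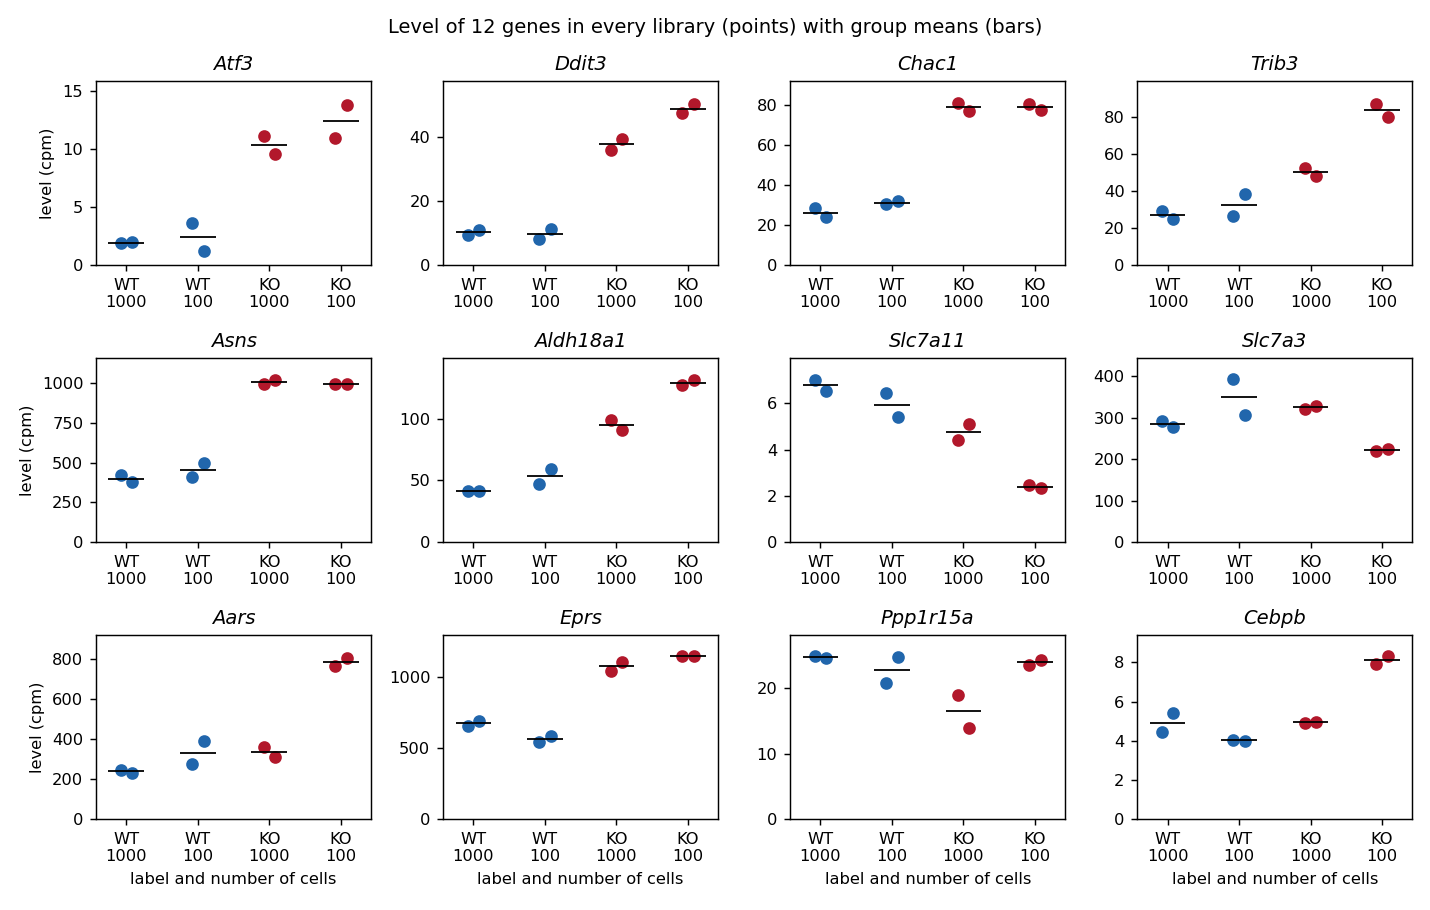
Level (y axis, cpm, linear and starting at 0) of 12 genes in every library (points) with the mean of the 2 libraries of each group (bars), by label and number of cells (x axis). In the panels of *Atf3*, *Ddit3*, *Chac1*, *Trib3*, *Asns* and *Aldh18a1* all KO points lie above all WT points, and in that of *Slc7a11* all lie below.

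Among genes of synthesis, *Asns* (chr6:7675169-7693254), asparagine synthetase, had the highest level per kilobase. It was at 419 and 377 cpm in WT and 991 and 1018 cpm in KO at 1000 cells. Libraries from 100 cells gave 409 and 499 cpm for WT and 992 and 990.2 cpm for KO. The 4 KO libraries lay between 990.2 and 1018 cpm, above all WT libraries, with log2 ratios of 1.34 ± 0.059 and 1.08 ± 0.12. The enzymes that make proline from glutamate followed. *Aldh18a1* (chr19:40550257-40588463) was at 41.7 and 41.8 cpm in WT and 98.8 and 90.8 cpm in KO at 1000 cells. With 100 cells, WT had 47.4 and 59.2 cpm and KO 127 and 131 cpm, so that its log2 ratios were 1.18 ± 0.081 and 1.23 ± 0.13. *Pycr1* (chr11:120635712-120643769) was at 36.8 and 36.9 cpm in WT and 81.7 and 70.3 cpm in KO at 1000 cells. Its levels from 100 cells were 26.1 and 41.2 cpm in WT and 75.8 and 71.9 cpm in KO (1.04 ± 0.089 and 1.08 ± 0.18). For both genes every KO library was above every WT library.

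The 3 enzymes of serine synthesis were also higher in KO at both inputs, *Phgdh* with 0.34 ± 0.073 and 0.88 ± 0.11, *Psat1* with 0.83 ± 0.059 and 0.76 ± 0.12 and *Psph* with 0.78 ± 0.080 and 0.76 ± 0.14. *Phgdh* catalyses the first step, and its ratio differed between inputs. The mitochondrial one-carbon enzymes *Shmt2* (0.32 ± 0.076 and 0.68 ± 0.12) and *Mthfd2* (0.34 ± 0.063 and 0.47 ± 0.14) had smaller ratios than *Asns*, *Aldh18a1* and *Pycr1* at both inputs. All 8 enzymes of synthesis were called higher at both inputs, as were at most 17.6% of all tested genes.

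The 6 transporters were mixed. *Slc7a11* (chr3:49892526-50443614), which imports cystine in exchange for glutamate, was at 7 and 6.55 cpm in WT and 4.43 and 5.12 cpm in KO at 1000 cells. From 100 cells it reached 6.43 and 5.43 cpm in WT and 2.46 and 2.34 cpm in KO. It was the single member whose KO libraries all lay below the WT libraries (-0.50 ± 0.20 and -1.34 ± 0.27). *Slc6a9* (chr4:117834506-117875198), a glycine transporter, was at 0.463 and 0.327 cpm in WT and 2.1 and 1.32 cpm in KO at 1000 cells. In the smaller input, WT gave 2.37 and 0.528 cpm and KO 2.76 and 2.95 cpm. Both KO libraries of 1000 cells lay below the higher WT library of 100 cells, and the ratio was called at 1000 cells only (2.04 ± 0.51 and 1.00 ± 0.55). Of its exon length 27.8% overlaps *Ccdc24* on the opposite strand.

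*Slc7a5* and its partner chain *Slc3a2*, which together import large neutral amino acids, had 0.75 ± 0.076 and 0.18 ± 0.062 at 1000 cells and 0.29 ± 0.16 and 0.21 ± 0.10 at 100 cells. *Slc7a1* and *Slc7a3*, carriers of cationic amino acids, had 0.82 ± 0.11 and 0.19 ± 0.060 at 1000 cells and 0.28 ± 0.15 and -0.70 ± 0.14 at 100 cells. Of the 6 transporters 5 were called higher at 1000 cells, as were 20.9% of all tested genes. At 100 cells 0 were called higher and 2 lower, where 17.6% and 16.6% of all tested genes were. These counts do not show a difference between inputs, since of the 6 only *Slc7a3* passed the threshold of the interaction. The call of *Slc7a11* at 1000 cells was lost in 7 of 12 alternative analyses, that of *Slc7a3* in 4 and that of *Slc3a2* in 3.

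The listed synthetases, which charge tRNAs in the cytosol, had ratios above 0 in all 12 genes at both inputs. *Nars* was at 471 and 442 cpm in WT and 829 and 776 cpm in KO at 1000 cells. Libraries from 100 cells gave 535 and 575 cpm for WT and 782 and 772 cpm for KO (0.81 ± 0.058 and 0.44 ± 0.10). *Eprs* (chr1:185363044-185428360), which charges both glutamate and proline tRNAs, was at 654 and 691 cpm in WT and 1039.9 and 1102 cpm in KO at 1000 cells. *Eprs* had 538 and 585 cpm in WT and 1141 and 1142 cpm in KO from 100 cells (0.67 ± 0.056 and 0.98 ± 0.11). Neither gene had overlapping groups.

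*Gars* (chr6:55038007-55079500) was at 309 and 290.2 cpm in WT and 496 and 485 cpm in KO at 1000 cells. With 100 cells, WT had 347 and 370.1 cpm and KO 626 and 643 cpm (0.71 ± 0.059 and 0.78 ± 0.10). *Cars* (chr7:143557230-143600090) was at 92 and 82.8 cpm in WT and 141 and 146 cpm in KO at 1000 cells. The groups of *Gars* and *Cars* did not overlap. *Cars* had 97.1 and 108 cpm in WT and 192 and 199 cpm in KO from 100 cells (0.71 ± 0.072 and 0.88 ± 0.11). *Aars* (chr8:111033144-111057664) was at 248 and 231 cpm in WT and 362 and 311 cpm in KO at 1000 cells. *Aars* had 274 and 388 cpm in WT and 762 and 805 cpm in KO from 100 cells (0.49 ± 0.067 and 1.20 ± 0.15). The KO libraries of *Aars* at 1000 cells thus fell within the range of the WT libraries at 100 cells, and those at 100 cells stood far above. Of its exon length 14.3% overlaps *Exosc6* on the same strand.

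The remaining 7 listed synthetases had ratios of 0.10 (*Wars*) to 0.57 (*Iars*) at 1000 cells and 0.25 (*Mars*) to 0.57 (*Sars*) at 100 cells. *Wars* at 1000 cells and *Mars* at 100 cells were the only ratios of the 12 that were not called. *Tars* was called at 1000 cells with a ratio of 0.15 ± 0.059, a call lost in 8 of 12 alternatives.

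Position in the genome moved with part of these ratios. Genes of chromosome 1, which holds *Atf3* and *Eprs*, had median KO/WT log2 ratios of 0.55 at 1000 cells and 0.45 at 100 cells. Genes of chromosome 8, which holds *Aars* and *Slc7a5*, had medians of -0.25 and -0.26. The medians of the other chromosomes lay between -0.14 and 0.10. With the median of its chromosome subtracted, *Atf3* had 1.86 and 1.91, and *Eprs* 0.12 and 0.53, whereas *Aars* had 0.74 and 1.46. The median of the listed synthetases was then 0.35 at 1000 cells and 0.52 at 100 cells. The part of these chromosome-wide shifts in the ratios of the members was not tested.

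The same reading of 6 neighbouring lists, also drawn up with results known, placed the members among related genes. Of all tested genes 20.9% were called higher and 20.6% lower at 1000 cells, and 17.6% and 16.6% at 100 cells. Of 17 other ATF4 targets 14 were called higher in KO and 2 lower at 1000 cells, and 12 and 2 at 100 cells, with medians of 1.24 and 1.18. Among them *Vldlr*, a lipoprotein receptor, had 2.50 ± 0.15 and 2.16 ± 0.35. *Pck2*, the mitochondrial form of a gluconeogenic enzyme, had 1.49 ± 0.14 and 2.04 ± 0.20, and *Ddit4*, an inhibitor of mTORC1, had 1.24 ± 0.17 and 2.21 ± 0.30. Although 14 of these 17 were called higher, their summed level in KO was 1.04 times that of WT at 1000 cells and 0.908 times at 100 cells.

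Cytosolic synthetases outside the 12 went both ways at the larger input, with 3 of 8 called higher and 3 lower at 1000 cells, and 3 higher and 0 lower at 100 cells. Called higher at both inputs were *Dars* (0.80 ± 0.058 and 0.65 ± 0.13) and *Farsb* (0.77 ± 0.061 and 0.63 ± 0.11), both of which lie on chromosome 1. Mitochondrial synthetases, which charge tRNAs of the organelle, had 4 of 17 higher and 7 lower at 1000 cells and 3 and 4 at 100 cells. Their shares called higher, 23.5% and 17.6%, were near those of all tested genes (20.9% and 17.6%). Their shares called lower were 41.2% and 23.5% (20.6% and 16.6% of all tested genes). Of the mitochondrial synthetases *Cars2*, on chromosome 8, had -1.09 ± 0.11 and -1.16 ± 0.13. *Sars2* had -0.77 ± 0.12 and -0.67 ± 0.14, and *Iars2*, on chromosome 1, 0.75 ± 0.073 and 0.66 ± 0.12.

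Of 11 genes for eIF2 kinases, eIF2, eIF2B and an eIF2 phosphatase subunit, 4 were called higher and 3 lower at 1000 cells, and 1 and 2 at 100 cells. That was 36.4% and 27.3% at 1000 cells, against 20.9% and 20.6% of all tested genes. At 100 cells it was 9.09% and 18.2%, against 17.6% and 16.6%. *Eif2ak4*, the kinase activated by uncharged tRNA, had 0.35 ± 0.12 and 0.83 ± 0.20, and the eIF2B subunits *Eif2b4* and *Eif2b1* had -0.31 and -0.25 at 1000 cells and -0.43 and -0.30 at 100 cells. Of 15 genes of the ER chaperone response 3 (20%) were higher and 6 (40%) lower at 1000 cells, and 0 and 2 (13.3%) at 100 cells. For this response the share higher at 1000 cells was thus near that of all tested genes. *Xbp1*, the factor that drives this response, had -0.42 ± 0.063 and -0.70 ± 0.11, and *Creld2* had -0.26 ± 0.074 and -0.58 ± 0.11. Of 8 targets of NRF2, the regulator of oxidative defence, 0 were called higher at either input, and 6 and 5 were called lower. *Nqo1* had -1.13 ± 0.080 and -1.26 ± 0.13, *Gclc*, which makes the precursor of glutathione, -0.54 ± 0.088 and -1.11 ± 0.14, and *Gsr*, which reduces oxidised glutathione, -0.93 ± 0.067 and -0.56 ± 0.10. *Nqo1* and *Gsr* lie on chromosome 8, whose median was -0.25 at 1000 cells and -0.26 at 100 cells. *Slc7a11*, the cystine importer, is known as a target of NRF2 as well as ATF4.

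**Figure D4:**
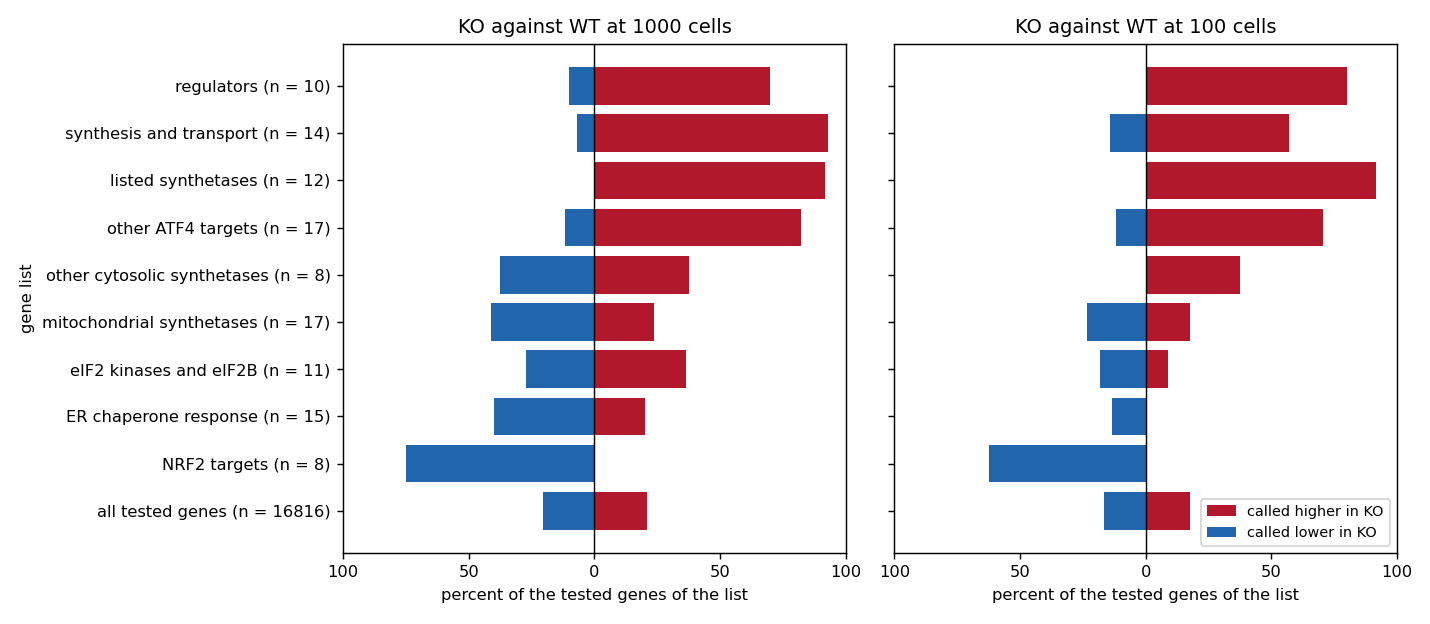
Percent of the tested genes of each list (x axis) called higher (red, to the right) or lower (blue, to the left) in KO than in WT at 1000 cells (left panel) and 100 cells (right panel), with the 3 member subgroups at the top and all 16816 tested genes at the bottom. The 3 subgroups and the other ATF4 targets lie mostly to the right, NRF2 targets to the left, and all tested genes at 20.9% and 20.6% in the left panel.

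Cell number was compared within WT to ask whether starting from 100 in place of 1000 cells changed the members. No member passed (edgeR quasi-likelihood, Benjamini-Hochberg adjusted; 0 higher, 0 lower of 36), where 0.149% of all tested genes were called higher and 0.678% lower. At an unadjusted p under 0.05 there were 11 members by edgeR, 9 of them higher and 2 lower at 100 cells, with 10 by DESeq2 and 9 by limma-voom, and neither of these tools called a member. The smallest p-values were those of *Aars* (log2 ratio of 100 over 1000 cells 0.45 ± 0.14, edgeR adjusted p = 0.162), *Mars* (0.34 ± 0.12, adjusted p = 0.206) and *Sesn2* (-0.53 ± 0.16, adjusted p = 0.134). The subgroup medians were -0.11 for regulators, 0.11 for synthesis and transport and 0.21 for listed synthetases.

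The spread between replicates was widest in WT at 100 cells. The median coefficient of variation between replicates was 10.8% over members with at least 10 cpm in WT at 100 cells, against 4.39% for WT and 5.05% for KO at 1000 cells, and 2.17% for KO at 100 cells. When replicate 1 of WT at 100 cells was left out, 13 members were called higher and 2 lower, and without replicate 2 these numbers were 8 and 3. Of all tested genes 6.96% and 8.26% were then called higher and 8.69% and 7.21% lower. The single remaining library is then assumed to vary like the other groups.

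Within KO the same comparison called 18 members higher at 100 cells, 3 lower and 15 at neither side, where 27.3% of all tested genes were called higher and 24.8% lower. By subgroup 4 of 10 regulators, 5 of 14 synthesis and transport genes and 9 of 12 listed synthetases were higher, and the 3 that fell were transporters. Medians were 0.32, 0.03 and 0.36, against -0.0012 over all tested genes. The rise was not limited to the listed synthetases. Of the other cytosolic synthetases 5 of 8 were called higher and 0 lower, with a median of 0.31. Of the mitochondrial synthetases 7 of 17 were called higher and 0 lower, with a median of 0.16. *Aars* rose most among the called members, by a log2 ratio of 1.22 ± 0.058 (edgeR adjusted p = 1.81e-18). *Phgdh* followed with 0.87 ± 0.060 (adjusted p = 3.5e-14), and *Trib3* rose by 0.73 ± 0.074 (adjusted p = 3.7e-10). *Shmt2* (0.56 ± 0.063, adjusted p = 4.88e-09), *Cars* (0.45 ± 0.057, adjusted p = 4.2e-08), *Yars* (0.47 ± 0.056, adjusted p = 1.24e-08) and *Ddit3* (0.37 ± 0.081, adjusted p = 0.000229) also rose.

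The carriers *Slc7a3* (-0.55 ± 0.053, edgeR adjusted p = 1.37e-10), *Slc7a1* (-0.53 ± 0.097, adjusted p = 2.27e-05) and *Slc7a11* (-0.99 ± 0.24, adjusted p = 0.000716) fell at 100 cells in KO. Members near the top of the KO/WT order that did not pass were *Asns* (-0.02 ± 0.047, adjusted p = 0.783), *Chac1* (0.01 ± 0.068, adjusted p = 0.941), *Pycr1* (-0.04 ± 0.074, adjusted p = 0.698) and *Atf3* (0.27 ± 0.14, adjusted p = 0.123). *Atf4* was also not called (-0.11 ± 0.056, adjusted p = 0.0922). The KO libraries of 100 cells are those with 287 and 289 cpm of myelin and astrocyte markers, all 8 of which were called higher than at 1000 cells, as were 7 of 8 neuron markers. The part of the source of these marker transcripts in the values of *Aars*, *Phgdh* and the other members was not tested.

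**Figure D5:**
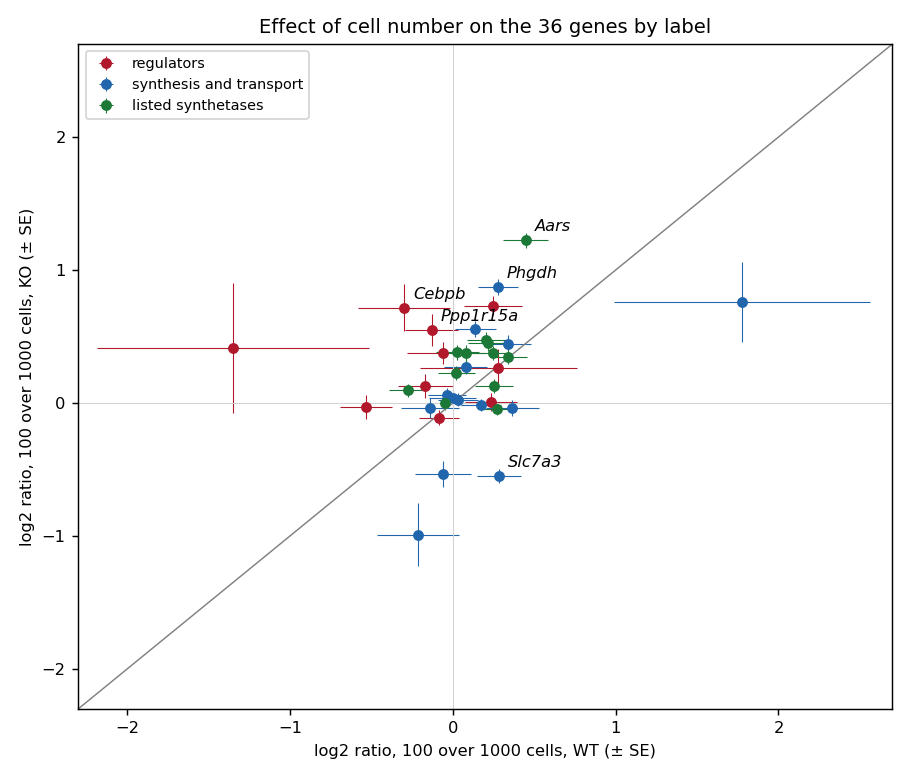
Log2 ratio of 100 over 1000 cells in WT (x axis) and in KO (y axis) for the 36 genes, coloured by subgroup, with bars of 1 SE and a line of equal ratios. The 5 named genes are those whose ratios differed past the threshold of the interaction, with *Aars*, *Phgdh*, *Cebpb* and *Ppp1r15a* above the line and *Slc7a3* below it.

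An interaction term over all 8 libraries tested whether the KO/WT ratio of a member differed between 100 and 1000 cells. It was past the threshold for 5 of 36 members, 4 with a more positive ratio at 100 cells and 1 with a more negative one, where 9.28% of all tested genes were called positive and 7.05% negative. *Aars* had an interaction of 0.75 ± 0.18 (edgeR adjusted p = 0.0143) and *Phgdh* of 0.58 ± 0.14 (adjusted p = 0.0142). *Phgdh* was at 115 and 107 cpm in WT and 149.7 and 132 cpm in KO at 1000 cells. *Phgdh* had 125 and 146 cpm in WT and 253 and 260.4 cpm in KO from 100 cells, so that the difference lay in the KO libraries of 100 cells. *Cebpb* had an interaction of 0.99 ± 0.30 (edgeR adjusted p = 0.0336), with 4.46 and 5.4 cpm in WT and 4.9 and 4.98 cpm in KO at 1000 cells. Its levels from 100 cells were 4.05 and 4 cpm in WT and 7.91 and 8.31 cpm in KO, again the highest of all libraries. The call of *Cebpb* was lost with DESeq2 (adjusted p = 0.132). Its other losses were all in fits with 1 library left out.

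*Ppp1r15a* had an interaction of 0.65 ± 0.21 (edgeR adjusted p = 0.0459). Its call was lost with a replicate block (edgeR adjusted p = 0.0503) and with DESeq2 (adjusted p = 0.0924). The other losses of this call were all in fits with 1 library left out. Levels of the gene were 24.9 and 24.5 cpm in WT and 18.9 and 13.9 cpm in KO at 1000 cells. *Ppp1r15a* had 20.8 and 24.7 cpm in WT and 23.4 and 24.3 cpm in KO from 100 cells, so that here the KO libraries of 1000 cells stood apart as the lowest. *Slc7a3* (chrX:101079210-101086020) had an interaction of -0.84 ± 0.15 (edgeR adjusted p = 0.00308). It was at 292 and 279 cpm in WT and 321 and 329.8 cpm in KO at 1000 cells. From 100 cells it reached 395 and 306 cpm in WT and 219 and 226 cpm in KO, where KO was the lowest group in place of one of the higher. For the other 31 members a difference between inputs was not detectable with 2 libraries per group, among them *Sesn2* (0.48 ± 0.17, edgeR adjusted p = 0.0617), *Eprs* (0.35 ± 0.12, adjusted p = 0.0588), *Slc7a1* (-0.49 ± 0.18, adjusted p = 0.0708) and *Nars* (-0.33 ± 0.12, adjusted p = 0.0745).

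A fit without 1 library leaves 1 library in its group, so only the sizes of the interactions are given for such fits. These sizes ranged from 0.53 to 1.03 for *Aars*, 0.48 to 0.69 for *Phgdh*, 0.86 to 1.14 for *Cebpb* and 0.45 to 0.88 for *Ppp1r15a*. *Aars* and *Phgdh* kept their calls in every alternative that used all 8 libraries, and lost them only in fits with 1 library left out. *Slc7a3* also kept its call with all 8 libraries. Its values ranged from -1.02 to -0.65 when 1 library was left out.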

How the data were processed

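RNA-Seq was measured in 8 libraries of 4 groups, named from the labels. The deposited values were raw counts of fragments per gene. Per the labels and methods of the study, the authors used CASAVA 1.8.2, removed ribosomal reads with Bowtie2 2.1.0, mapped to mm10 with TopHat2 2.0.10 and counted over GENCODE M4 with HTSeq 0.6.1 in union mode, ignoring strand and discarding reads with several positions. Reads of overlapping or near-identical genes can therefore be misassigned or lost, and PCR copies carry no molecular identifiers. Of 43309 identifiers 42425 matched GENCODE M21 without version number, which gave symbols and positions. RefSeq gave the promoters (GRCm38.p6).

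A gene entered the test if any library held 10 counts or more. The test was edgeR 4.0.16 (R 4.3.3), quasi-likelihood with the F statistic, after TMM normalization, each comparison on its 4 libraries and the interaction on all 8, two-sided, with Benjamini-Hochberg adjustment over 16816 genes and a threshold of 0.05. SE is the log2 ratio divided by the root of F. Levels are cpm of the TMM-scaled library, and levels between genes were compared per kilobase of exon. The edgeR fits of both KO/WT comparisons and of the interaction were tested on simulated counts. Members and lists were chosen with earlier results of these data known. Values in every library are given for the 5 members of each subgroup with the largest mean KO/WT log2 ratio of either sign and for those past the interaction threshold, and up to 3 genes of each neighbouring list were named by the same measure. Medians per chromosome were taken over genes that averaged 10 cpm or more. Alternatives were DESeq2 1.42.0 or its size factors, library size alone, limma-voom 3.58.1, other filters, 1 fit of all libraries, a replicate block, subtraction of chromosome medians and each replicate left out. Replicates differed by more than counting noise in every group (chi-square per degree of freedom 1.94 to 16.1), so none was counted as a duplicate.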

Additional observations from a re-analysis of the deposited data

Results flagged for a closer look

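The KO/WT log2 ratio of 5 members differed between 100 and 1000 cells past the threshold of the interaction test (edgeR quasi-likelihood with Benjamini-Hochberg adjustment). The difference was 0.65 for *Ppp1r15a* (adjusted p = 0.0459), 0.99 for *Cebpb* (adjusted p = 0.0336), 0.58 for *Phgdh* (adjusted p = 0.0142), -0.84 for *Slc7a3* (adjusted p = 0.00308) and 0.75 for *Aars* (adjusted p = 0.0143). Of the members 11.1% were called positive and 2.78% negative, against 9.28% and 7.05% of all tested genes. The positive share of the members was thus near that of all tested genes. For *Aars*, *Phgdh*, *Cebpb* and *Slc7a3* the group that stood apart was KO at 100 cells. That group also held the higher levels of brain cell marker transcripts. For *Ppp1r15a* the group that stood apart was KO at 1000 cells. With DESeq2 the calls of *Cebpb* and *Ppp1r15a* were lost (adjusted p = 0.132 and 0.0924). That of *Ppp1r15a* was also lost with a replicate block (edgeR adjusted p = 0.0503). *Aars*, *Phgdh* and *Slc7a3* kept their calls in every alternative that used all 8 libraries. With 1 library left out, the calls of *Aars*, *Phgdh*, *Cebpb* and *Ppp1r15a* were lost in some fits.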

How the results depend on the processing

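Scaling by library size alone lowered the medians at 1000 cells to 0.44 (regulators), 0.68 (synthesis and transport) and 0.41 (listed synthetases), and lowered the share of higher calls among all called genes from 50.4% to 39.3%. Subtracting the median of each chromosome gave 0.35 and 0.52 for the listed synthetases at 1000 and 100 cells. With at least 10 counts in every library the median of the regulators at 100 cells was 0.99. DESeq2, a filter of 1 count and 1 fit of all 8 libraries each called 1 member lower in KO at 1000 cells. Among all genes they called 2277, 3477 and 2613 lower. In WT the filter of 1 count called 1 member higher at 100 cells, and 1 fit of all libraries called 1 higher and 1 lower. Among all genes that filter called 136 higher, and that fit 241 higher and 435 lower. The KO/WT calls of 1 member or more changed with each library left out. No result of a test changed direction while called. Causes were not tested.

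Leaving out 1 library at a time, members called higher in KO ranged from 27 to 30 at 1000 cells and from 15 to 33 at 100 cells, with 1 called lower at 1000 cells and 0 to 2 at 100 cells. At 100 cells the share of all tested genes called also rose and fell with the library left out. The same held for cell number in WT and for the interaction. The member counts of these fits therefore cannot show how stable the members are. The medians at 1000 cells ranged from 0.47 to 0.60 (regulators), 0.69 to 0.81 (synthesis and transport) and 0.45 to 0.53 (listed synthetases). At 100 cells the medians ranged from 0.95 to 1.12, 0.58 to 0.77 and 0.45 to 0.53. For cell number in WT, 0 to 13 members were called higher and 0 to 3 lower, with medians of -0.24 to -0.058, 0.0045 to 0.16 and 0.17 to 0.25. In KO 16 to 19 were called higher and 3 to 4 lower, with medians of 0.25 to 0.30, 0.024 to 0.060 and 0.30 to 0.38. For the interaction 0 to 14 were positive and 1 to 7 negative, with medians of 0.34 to 0.60, -0.15 to 0.12 and 0.13 to 0.23.

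Whether replicate numbers pair the libraries could not be settled, since the labels name no clone and each group has only 2 libraries. Deviations of same-numbered libraries correlated across genes at -0.12 to 0.17 between groups. The main tests used no pairing. With a replicate block 31 members were called higher at 1000 cells, 27 at 100 cells, 0 for cell number in WT, 19 in KO and 3 for the interaction. Of the 16816 tested genes 3739, 3327, 60, 4606 and 1503 were then called higher. The interaction call of *Ppp1r15a* was lost with this block (edgeR adjusted p = 0.0503). A block with crossed numbers, added after the data were seen, called 1 member and 141 of all tested genes higher for cell number in WT.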
